A study of Homo sapiens with 6 samples.

Results

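The CDK inhibitor genes were examined in A2780 cells, a human ovarian cancer cell line, after knockdown of BMI1 or of the long non-coding RNA FAL-1. The family was taken as 8 genes, CDKN1A, CDKN1B, CDKN1C, CDKN2A, CDKN2B, CDKN2C, CDKN2D and CDKN3, and its members are the probe sets that a platform annotation assigns to them alone. A total of 7 of the 8 genes had such a probe set, 1 each, among 18418 genes and 33252 probe sets on the array. CDKN2C was not analysed here.

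All cells were A2780 infected with lentivirus. Virus medium was replaced after 24 hours, RNA was taken at 96 hours, and the medium held 10% fetal bovine serum. The 4 groups were BMI1 knockdown (the infections BMI1 shRNA1 and BMI1 shRNA2, 1 array each) with BMI1 Ctrl (1 array), and FAL-1 knockdown (FAL-1 shRNA1 and FAL-1 shRNA2, 1 array each) with FAL-1 Ctrl (1 array). A short hairpin RNA (shRNA) lowers a chosen transcript, and the controls received a control shRNA whose sequence the labels do not give. BMI1 belongs to the chromatin repressor PRC1, one of the Polycomb complexes. FAL-1 is a partner of BMI1 protein that the study's authors linked to repression of CDKN1A, so CDKN1A was of interest to the study beforehand.

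CDK inhibitors hold back the cell division cycle by binding cyclin-dependent kinases (CDKs). The Cip/Kip proteins, encoded by CDKN1A, CDKN1B and CDKN1C, bind cyclin-CDK complexes, whereas the INK4 proteins, encoded by the CDKN2 genes, bind CDK4 and CDK6 and keep them from their D-type cyclins. CDKN3 differs from both groups, since it encodes a phosphatase that acts on CDK2. The CDKN2A and CDKN2B locus is a classic site of Polycomb repression.

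Values are log2 probe set summaries, 1 per array, so a difference of 1 is a doubling. The array medians lay between 6.94 and 7.09, and arrays correlated across probe sets at 0.985 to 0.995 within a target's set and at 0.973 to 0.987 between sets. The FAL-1 shRNA2 array stood apart from the others in many of the values below. Tests used limma over all 18418 genes with Benjamini-Hochberg adjustment. They rest on the spread between hairpins of the same target, with 2 residual degrees of freedom, and assume that each lone control varies likewise. The labels name no separate cultures. The p-values therefore measure only the spread between these samples, and precision is limited by how few arrays there are. That spread holds differences between the hairpins of a target as well as any technical ones, and these cannot be told apart. In bulk RNA, fewer expressing cells and less RNA per cell cannot be told apart. The probe set for BMI1, which also reads COMMD3-BMI1, was at 8.73 with BMI1 shRNA1 and 9.99 with BMI1 shRNA2, against 10.64 in BMI1 Ctrl. FAL-1 had no named probe set, so its knockdown was not checked. Of the ovarian cancer line markers, VIM, CDH2, KRT8 and KRT18 were above the median gene by their means over the arrays, whereas PAX8, WT1, MUC16, KRT7, EPCAM and CDH1 were below it, as were 7 of 7 blood and endothelial markers. HBB, a haemoglobin gene of that list, read 7.71 with FAL-1 shRNA2, 1.21 above FAL-1 Ctrl, on the array that also had the largest CDKN1A and CDKN3 changes, and its part in them was not tested.

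CDKN1A, which encodes p21, had the largest positive difference from its own control of any member on every knockdown array except FAL-1 shRNA1, where that of CDKN3 was larger. It read 10.34 with BMI1 shRNA1 and 10.65 with BMI1 shRNA2, against 9.50 in BMI1 Ctrl. It read 10.17 with FAL-1 shRNA1 and 11.70 with FAL-1 shRNA2, against 9.65 in FAL-1 Ctrl. All 4 knockdown arrays were above both controls, and the lowest of them, FAL-1 shRNA1, was 0.52 above the higher control.

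The promoter of CDKN1A is shown because it had the largest mean difference, that of CDKN3 because its values lay below the control on 3 of 4 knockdown arrays, and that of CDKN2B because it was the only other member above both controls on all 4. Each line gives the 250 bases before the RefSeq transcription start site (GRCh38.p14), 5′ to 3′ on the gene's strand, with motif matches in capitals. The motifs searched on both strands were the GC box GGGCGG, the TATA box TATAAA, the CCAAT box CCAAT, the cell cycle homology region (CHR) TTTGAA or TTCGAA, the E2F site TTTCGCGC or TTTGGCGC, and the E box CACGTG.
CDKN1A, chr6:36678464-36678713, plus strand: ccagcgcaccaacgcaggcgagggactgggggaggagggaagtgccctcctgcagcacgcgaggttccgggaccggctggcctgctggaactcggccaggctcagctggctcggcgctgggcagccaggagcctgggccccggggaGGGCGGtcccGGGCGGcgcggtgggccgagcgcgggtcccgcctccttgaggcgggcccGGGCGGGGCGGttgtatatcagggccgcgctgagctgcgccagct
CDKN3, chr14:54396757-54397006, plus strand: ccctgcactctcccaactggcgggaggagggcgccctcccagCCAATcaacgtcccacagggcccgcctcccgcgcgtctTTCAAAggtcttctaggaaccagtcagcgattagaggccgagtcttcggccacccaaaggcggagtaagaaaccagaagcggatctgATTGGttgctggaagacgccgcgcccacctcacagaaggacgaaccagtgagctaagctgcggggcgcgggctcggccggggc
CDKN2B, chr9:22009306-22009555, minus strand: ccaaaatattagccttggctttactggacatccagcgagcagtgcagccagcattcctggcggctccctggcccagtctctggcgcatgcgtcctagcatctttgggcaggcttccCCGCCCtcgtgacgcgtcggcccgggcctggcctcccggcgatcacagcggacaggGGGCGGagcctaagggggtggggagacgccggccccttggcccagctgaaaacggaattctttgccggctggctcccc
In CDKN1A the capitals are 4 GC boxes, which begin at -104, -94, -45 and -40, counted from the start site, and the last pair overlaps by 1 base. In CDKN3 they are CCAAT boxes beginning at -208 and, on the opposite strand, at -83, and a CHR on the opposite strand at -170. In CDKN2B they are GC boxes at -134, on the opposite strand, and at -78. Of 35116 promoter windows of 300 bases in RefSeq (250 before and 50 after each start site), 45.0% held a GC box, 34.6% a CCAAT box, 16.4% a CHR, 11.5% a TATA box, 7.26% an E box and 1.15% an E2F site. Among the 10 windows of the 7 family genes found there, which include CDKN2C and not CDKN1C, 7 held a GC box and 1, that of CDKN3, a CHR. None of the 10 held the TATA box or the E2F site as spelled. These matches describe the letters and are not evidence of binding.

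**Figure D1:**
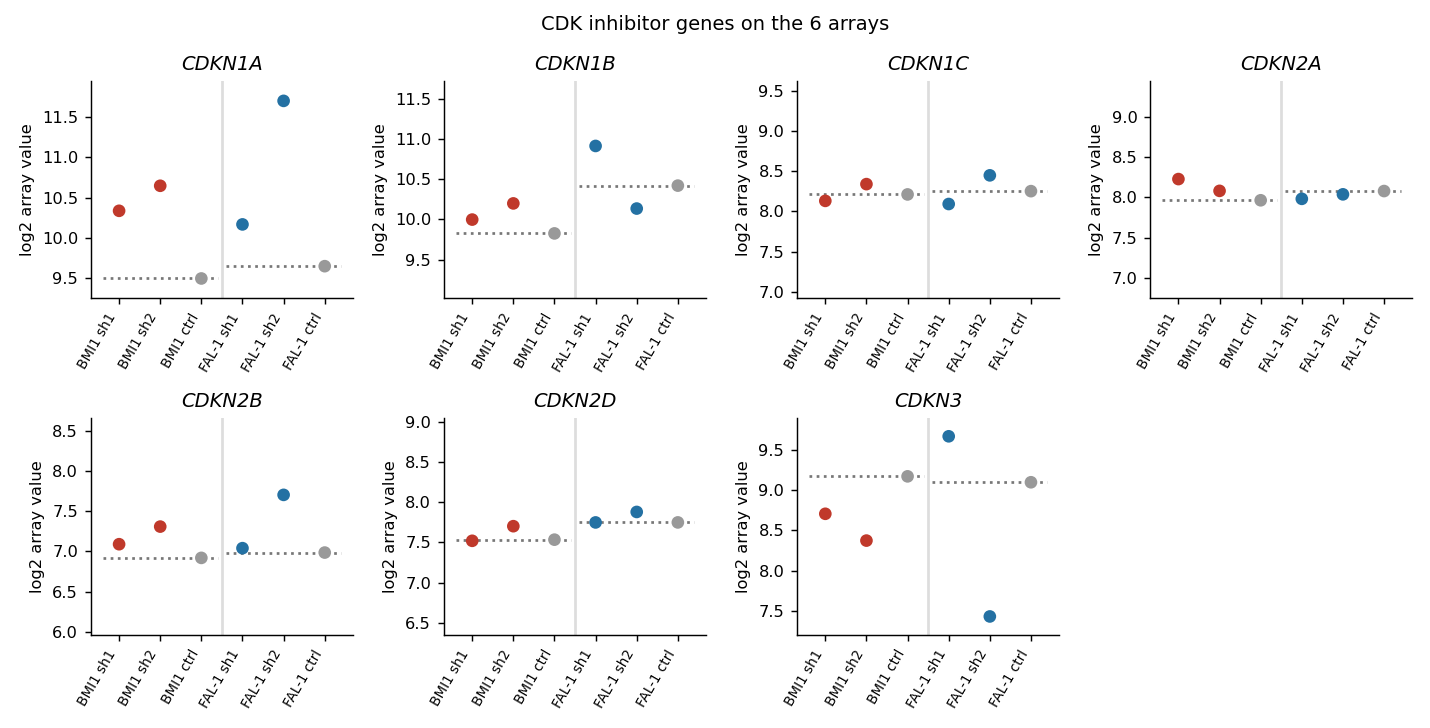
Log2 array values (vertical axis, the same span in each panel) of the 7 measured CDK inhibitor genes on each of the 6 arrays (horizontal axis), with 1 point per array and a dotted line at each set's own control. CDKN1A lies above both controls on all 4 knockdown arrays, from 10.17 to 11.70 against 9.50 and 9.65, and CDKN3 lies lowest, at 7.43, with FAL-1 shRNA2.

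With BMI1 knockdown, CDKN1A was 1.79-fold and 2.22-fold the level of BMI1 Ctrl, a mean log2 change of 0.996 ± 0.22 (SD, n = 2 hairpins). It did not pass limma's test (95% interval of the log2 change -0.77 to 2.76, adjusted p = 0.9998). Set against FAL-1 Ctrl the same hairpins were at 1.61-fold and 1.999-fold. The choice of control thus moved CDKN1A by 0.15, the difference between the control arrays, which was less than the gap of 0.31 between the BMI1 hairpins. The hairpin with less BMI1 left had the smaller CDKN1A difference, since BMI1 shRNA1 left BMI1 at 26.8% and BMI1 shRNA2 at 64.0% of BMI1 Ctrl.

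With FAL-1 knockdown, CDKN1A was 1.43-fold the level of FAL-1 Ctrl with shRNA1 and 4.15-fold with shRNA2. The mean log2 change was 1.29 ± 1.09 (SD, n = 2 hairpins), with a 95% interval of -0.48 to 3.05, and limma gave adjusted p = 0.999. The gap between the FAL-1 hairpins, 1.53, exceeded the mean change. Against BMI1 Ctrl the hairpins were at 1.59-fold and 4.62-fold. The BMI1 transcript itself was 99.9% of FAL-1 Ctrl with FAL-1 shRNA1 and 79.8% with FAL-1 shRNA2.

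Over both targets, each against its own control, the CDKN1A change averaged 1.14 (95% interval -0.11 to 2.39), and limma's p was 0.065 before and 0.907 after adjustment. The FAL-1 change minus the BMI1 change was 0.29 (95% interval -2.21 to 2.79, limma adjusted p = 0.9999), so a difference between targets of about 2 on the log2 scale in either direction was within the interval. An exact permutation test of all 4 knockdown arrays against the 2 controls gave p = 0.133, two-sided, which is the smallest p that this design allows. Any gene with all 4 knockdown arrays above both controls gets this value, so it adds nothing to that pattern.

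Among all genes, the CDKN1A change was exceeded by 100 genes with BMI1 shRNA1, 41 with BMI1 shRNA2, 285 with FAL-1 shRNA1 and 17 with FAL-1 shRNA2. By the mean of the 4 changes, 15 genes of 18418 were at or above it, CDKN1A included. By the gap between the lowest knockdown array and the higher control, 22 genes were at or above it, CDKN1A included. CDKN1A therefore lay at the upper edge of the distribution with each hairpin, and at its far end with FAL-1 shRNA2.

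**Figure D2:**
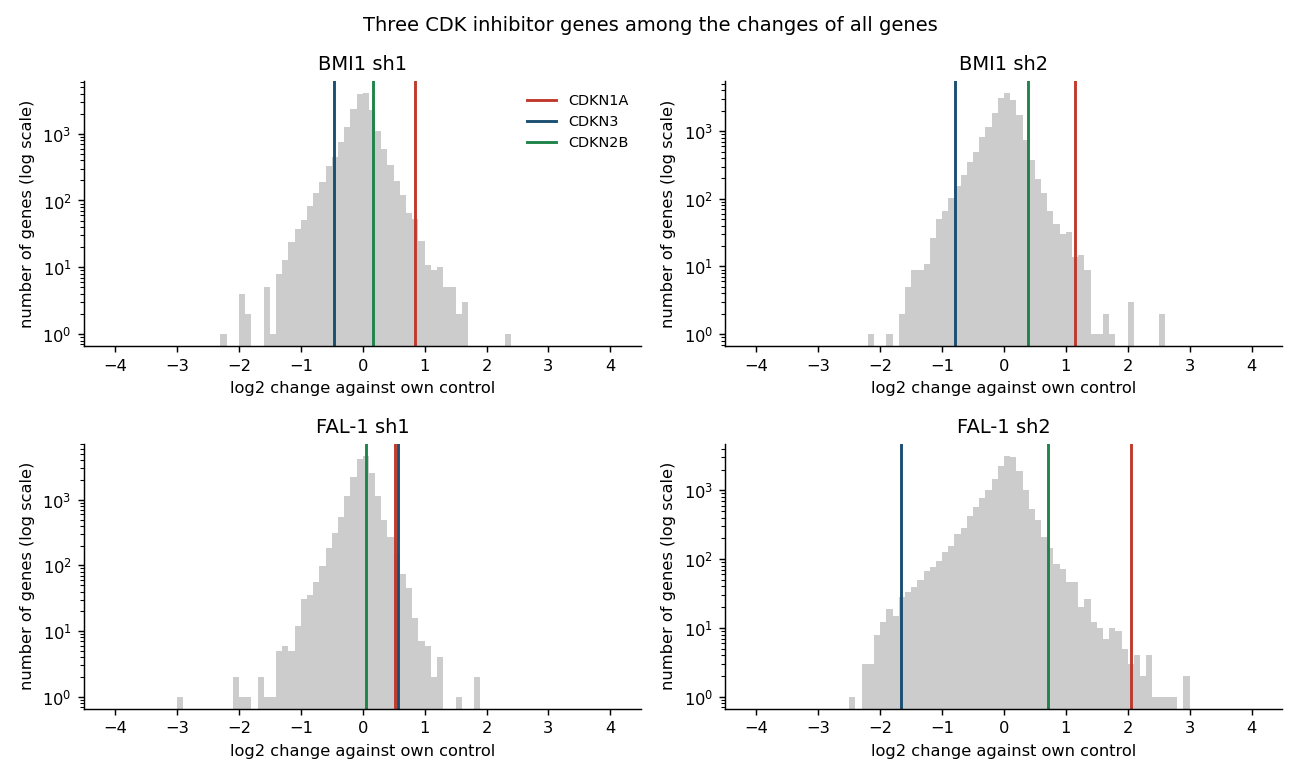
Number of genes (vertical axis, log scale) by log2 change against the own control (horizontal axis) for each hairpin, with vertical lines at CDKN1A, CDKN3 and CDKN2B. CDKN1A lies in the right tail in all 4 panels, at 0.84, 1.15, 0.52 and 2.05, whereas CDKN3 lies on the left in 3 panels and on the right, at 0.57, with FAL-1 shRNA1.

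A rule of size was used beside the test. Both hairpins of a target were at least 1.5-fold higher than their own control for 0.538% of genes with BMI1 and for 0.576% with FAL-1. CDKN1A met this rule with BMI1 and missed it with FAL-1, because FAL-1 shRNA1 was at 1.43-fold. Against BMI1 Ctrl it met the rule with FAL-1 as well, beside 2.47% of all genes, and against FAL-1 Ctrl it still met it with BMI1, beside 0.966%. All 4 hairpins were at least 1.5-fold above their own control for 0.152% of genes and no member. On the lower side the rule took 0.901% of genes with BMI1 and 0.635% with FAL-1, and no member. All 4 knockdown arrays were above both controls for 9.02% of genes and below both for 8.04%. Of the 7 members, CDKN1A and CDKN2B were above and none was below. CDKN2B is thus 1 of 1661 genes with that pattern.

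At a looser threshold of 125% of the control for both hairpins, CDKN1A was higher with BMI1, beside 2.35% of genes, and with FAL-1, beside 2.90%. CDKN3 was lower with BMI1 by the same factor, beside 4.23% of genes, and no member was lower with FAL-1, beside 3.39%. No member reached 2-fold with both hairpins of a target, which 0.103% of genes did on the higher and 0.0923% on the lower side with BMI1, and 0.0326% and 0.0652% with FAL-1. By direction alone, 4 members were above BMI1 Ctrl with both BMI1 hairpins (CDKN1A, CDKN1B, CDKN2A and CDKN2B), beside 32.9% of genes, and CDKN3 was below, beside 30.7%. With FAL-1, CDKN1A and CDKN2B were above FAL-1 Ctrl with both hairpins, beside 37.2% of genes, and CDKN2A was below, beside 27.7%. Against FAL-1 Ctrl, 3 members were above with both BMI1 hairpins (31.8% of genes) and 3 below (37.7%). Against BMI1 Ctrl, 5 members were above with both FAL-1 hairpins (41.8% of genes) and 0 below (28.1%). These shares show that direction alone is common, so the counts of members by direction are a description.

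limma called no member in any of the 4 comparisons, namely BMI1 knockdown and FAL-1 knockdown against their own controls, the mean of these changes and the difference between them. It called 0% of the 18418 genes in each as well. At an unadjusted p under 0.05 there were 477 genes with BMI1 (2.59%), 563 with FAL-1 (3.06%), 962 for the mean (5.22%) and 148 for the difference (0.804%), and again no member. The 7 members had a median change of 0.17 with BMI1 shRNA1, 0.17 with BMI1 shRNA2, 0.05 with FAL-1 shRNA1 and 0.13 with FAL-1 shRNA2, beside medians of -0.01, 0.02, 0.01 and 0.05 over all genes. Against the other target's control the members' medians were -0.12, 0.0022, 0.21 and 0.31, so the sign with BMI1 shRNA1 turned and the FAL-1 values were higher.

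**Figure D3:**
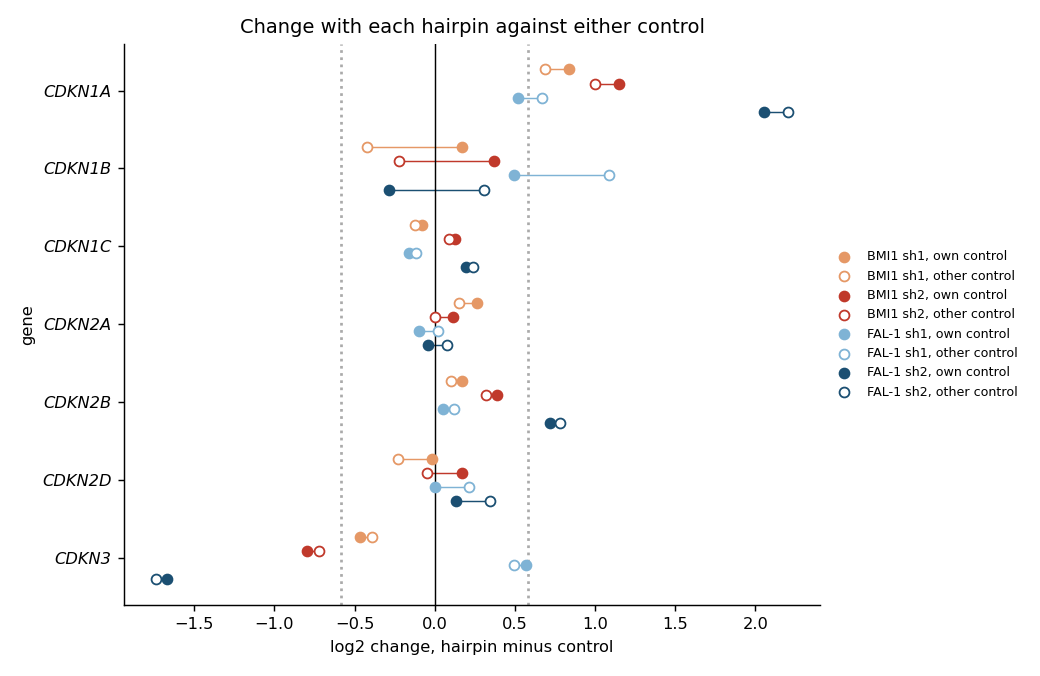
Log2 change (horizontal axis) of each measured CDK inhibitor gene (rows) with each hairpin, against its own control (filled points) and against the other target's control (open points), with dotted lines at 1.5-fold. CDKN1A is the only row with all 8 points to the right of 0.5, CDKN1B has points that change side with the control, and CDKN3 is spread from -1.74 to 0.57.

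CDKN1B encodes p27, a Cip/Kip inhibitor that is controlled largely through degradation of the protein. It read 10.00 with BMI1 shRNA1 and 10.20 with BMI1 shRNA2, against 9.83 in BMI1 Ctrl, and 10.91 with FAL-1 shRNA1 and 10.13 with FAL-1 shRNA2, against 10.42 in FAL-1 Ctrl. The control arrays themselves differed by 0.59, with FAL-1 Ctrl higher, which was more than any hairpin's change against its own control.

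The direction of CDKN1B therefore depended on the control. Its BMI1 change averaged 0.27 ± 0.14 (SD, n = 2 hairpins) against BMI1 Ctrl and -0.32 against FAL-1 Ctrl. With FAL-1 the hairpins were on opposite sides of FAL-1 Ctrl, at 0.49 and -0.28, and both above BMI1 Ctrl, at 1.09 and 0.31. None of these passed limma's test (adjusted p = 0.9998 for BMI1 and 0.999 for FAL-1 against their own controls). The FAL-1 hairpin with the higher CDKN1A had the lower CDKN1B.

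CDKN1C encodes p57, an imprinted Cip/Kip inhibitor. It read 8.13 and 8.34 with the BMI1 hairpins, against 8.21 in BMI1 Ctrl, and 8.09 and 8.45 with the FAL-1 hairpins, against 8.25 in FAL-1 Ctrl. With each target the hairpins lay on opposite sides of the control. The mean changes were 0.02 ± 0.15 with BMI1 and 0.02 ± 0.25 with FAL-1 (SD, n = 2 hairpins each), and the 95% intervals from limma were -0.54 to 0.59 and -0.55 to 0.58. A change of about 1.5-fold in either direction lies at the edge of these intervals.

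CDKN2B encodes p15, an INK4 inhibitor. It read 7.09 with BMI1 shRNA1 and 7.31 with BMI1 shRNA2, against 6.92 in BMI1 Ctrl, and 7.04 with FAL-1 shRNA1 and 7.70 with FAL-1 shRNA2, against 6.98 in FAL-1 Ctrl. Each knockdown array was above both controls, FAL-1 shRNA1 by only 0.05. The highest was FAL-1 shRNA2, at 1.64-fold its own control. The mean changes were 0.28 ± 0.15 with BMI1 and 0.39 ± 0.47 with FAL-1 (SD, n = 2 hairpins each; limma adjusted p = 0.9998 and 0.999). The exact permutation test of all 4 knockdown arrays against the 2 controls gave p = 0.133. That value is fixed once all 4 knockdown arrays lie above both controls, so it adds nothing to that pattern. CDKN2B was the only member whose mean over the arrays was below that of the median gene, and a dim probe set tends to understate a change.

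CDKN2A encodes p16 and, from another first exon, the ARF protein. Its probe set is annotated to transcripts of both, so these cannot be told apart. It read 8.23 and 8.08 with the BMI1 hairpins, against 7.96 in BMI1 Ctrl, and 7.98 and 8.04 with the FAL-1 hairpins, against 8.08 in FAL-1 Ctrl. Both BMI1 hairpins were above their control, by 0.26 and 0.12, and both FAL-1 hairpins below theirs, by a change of -0.10 and -0.04. The 6 values covered 0.26 in all, the smallest range of any member. Against FAL-1 Ctrl the BMI1 hairpins were at 0.15 and 0.00, and against BMI1 Ctrl the FAL-1 hairpins were at 0.02 and 0.07. limma's test of the difference between targets gave -0.26 (95% interval -0.79 to 0.27, adjusted p = 0.9999).

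Near CDKN2A and CDKN2B the array also named CDKN2A-AS1, a non-coding RNA of the locus, MTAP, a methylthioadenosine phosphorylase gene often lost together with CDKN2A, and DMRTA1. CDKN2A-AS1, also dimmer than the median gene, was higher with every hairpin, by 0.16 and 0.23 with BMI1 and by 0.11 and 0.34 with FAL-1. MTAP was lower with every hairpin, at -0.12 and -0.06 with BMI1 and at -0.29 and -0.18 with FAL-1. Against FAL-1 Ctrl, however, the BMI1 hairpins had MTAP at 0.04 and 0.09. None of the 3 neighbours passed limma's test or the 1.5-fold rule.

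CDKN2D encodes the INK4 protein p19. It read 7.52 and 7.70 with the BMI1 hairpins, against 7.53 in BMI1 Ctrl, and 7.75 and 7.88 with the FAL-1 hairpins, against 7.75 in FAL-1 Ctrl. In both sets shRNA1 lay level with its control and shRNA2 slightly above it. The mean changes were 0.08 ± 0.13 and 0.06 ± 0.09 (SD, n = 2 hairpins each), with 95% intervals of -0.34 to 0.49 and -0.35 to 0.48. The control arrays differed by 0.21, so against FAL-1 Ctrl both BMI1 hairpins were lower, at -0.23 and -0.05.

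CDKN3, the phosphatase gene, had the widest range of the family, 2.24, slightly more than CDKN1A with 2.21. It read 8.71 with BMI1 shRNA1 and 8.37 with BMI1 shRNA2, against 9.17 in BMI1 Ctrl. It read 9.67 with FAL-1 shRNA1 and 7.43 with FAL-1 shRNA2, against 9.10 in FAL-1 Ctrl. The FAL-1 hairpins thus gave both the highest and the lowest of the 6 values. CDKN3 was at 72.4% and 57.5% of its control with the BMI1 hairpins, and at 149% and 31.5% with the FAL-1 hairpins.

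The mean CDKN3 change was -0.63 ± 0.24 with BMI1 and -0.55 ± 1.58 with FAL-1 (SD, n = 2 hairpins each), and neither passed limma's test (adjusted p = 0.9998 and 0.999). The control arrays differed by 0.07, less than the gap between hairpins of either target (0.33 and 2.24). Among all genes, 5.49% had a lower change than CDKN3 with BMI1 shRNA1, 1.53% with BMI1 shRNA2 and 0.380% with FAL-1 shRNA2. With FAL-1 shRNA1, 1.03% had a higher one.

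The order of the arrays by CDKN1A was FAL-1 shRNA2, BMI1 shRNA2, BMI1 shRNA1, FAL-1 shRNA1, FAL-1 Ctrl and BMI1 Ctrl, from high to low. Neighbours from BMI1 shRNA2 to FAL-1 shRNA1, and the controls, lay within 0.31 of each other, the gap between the BMI1 hairpins. Only the steps from FAL-1 shRNA2 to BMI1 shRNA2 and from FAL-1 shRNA1 to FAL-1 Ctrl were larger. CDKN3 did not run in the reverse order, because its highest value was with FAL-1 shRNA1, above both controls. Over the 6 arrays CDKN1A and CDKN3 had a Pearson r of -0.861, and of -0.546 without FAL-1 shRNA2.

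The partners and targets of the inhibitors were described with lists of cell cycle genes. In the list of 14 G1 and S phase cyclins and kinases, 2 genes were higher than the control with both BMI1 hairpins and 8 lower, and with FAL-1 4 were higher and 4 lower. Over all genes, 32.9% were higher and 30.7% lower with both BMI1 hairpins, and 37.2% and 27.7% with both FAL-1 hairpins, and each count below is to be read against these shares. CDK6, a kinase bound by INK4 proteins and dimmer here than the median gene, was higher with every hairpin, by 0.58 and 0.68 with BMI1 and 0.37 and 0.53 with FAL-1. Against FAL-1 Ctrl the BMI1 values of CDK6 were 0.00 and 0.11. Its mean change against the own control was 0.63 with BMI1 and 0.45 with FAL-1 (limma unadjusted p = 0.010 and 0.033, adjusted p = 0.9998 and 0.999). CDK4 was higher by 0.09 and 0.26 with BMI1 and by 0.18 and 0.06 with FAL-1, and against FAL-1 Ctrl its BMI1 values were -0.18 and -0.00.

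CCNE2, cyclin E2, which activates CDK2 at the start of S phase, was lower with every hairpin, at -0.58 and -1.01 with BMI1 and at -0.34 and -1.90 with FAL-1. CCNA2, cyclin A2, was also lower with each, at -0.34 and -0.79 and at -0.14 and -1.20. CDK2 read -0.31 and -0.60 with BMI1, and 0.05 and -1.08 with FAL-1. The D-type cyclin gene CCND1 read -0.45 and -0.64 with BMI1, and -0.05 and 0.35 with FAL-1. FAL-1 shRNA2, the array with the highest CDKN1A, had the lowest CCNE2 and CCNA2, but not a low CCND1.

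In the list of 15 E2F-driven S phase genes, 15 were lower with both BMI1 hairpins and 8 with both FAL-1 hairpins, and none was higher with both. Their median change was -0.49 and -0.69 with the BMI1 hairpins, and -0.01 and -1.16 with the FAL-1 hairpins. CDC45, a replication fork factor with the lowest mean of the 4 changes in the list, read -0.87 and -1.05 with BMI1 and at -0.01 and -1.74 with FAL-1. In the list of 12 G2 and M phase cyclins and kinases, 11 were lower with both BMI1 hairpins and 5 with both FAL-1 hairpins, with none higher. The medians were -0.29, -0.49, 0.04 and -0.82 in the same order of hairpins, and -0.12, -0.36, -0.11 and -1.001 against the other target's control. CDK1, the mitotic kinase, read -0.47 and -0.75 with BMI1 and -0.19 and -1.37 with FAL-1, and CCNB2, cyclin B2, read -0.21 and -0.83 and then -0.07 and -1.85. No gene of these lists passed limma's test, and the lists were chosen with earlier results of these arrays known.

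**Figure D4:**
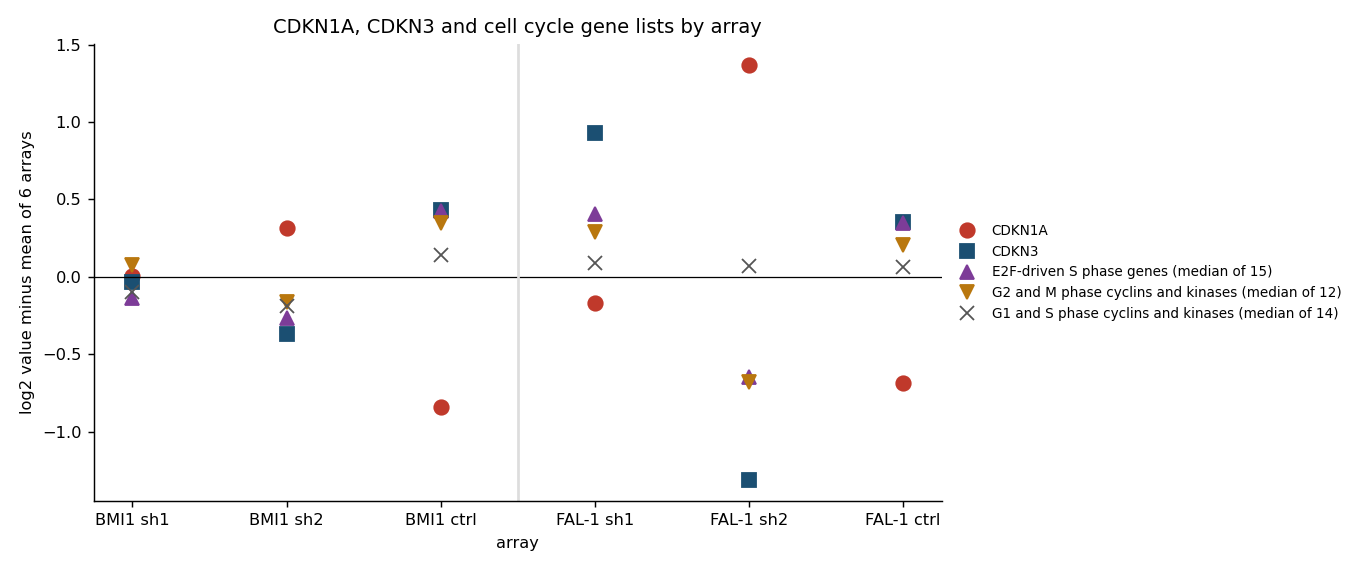
Log2 value minus the mean of the 6 arrays (vertical axis) by array (horizontal axis) for CDKN1A, CDKN3 and the medians of 3 gene lists. With FAL-1 shRNA2 CDKN1A is highest and CDKN3 is lowest. The medians of the E2F-driven S phase list and the G2 and M phase list are also lowest there, at -0.65 and -0.68. With FAL-1 shRNA1 these medians are at 0.40 and 0.29, close to their level in FAL-1 Ctrl (0.35 and 0.21). The G1 and S phase median does not share this pattern. It is at 0.07 with FAL-1 shRNA2, against 0.06 in FAL-1 Ctrl, and is lowest, at -0.19, with BMI1 shRNA2.

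CDK inhibitors such as the INK4 proteins act in part through the RB family. In the list of 10 RB and E2F genes, 6 were lower and 2 higher with both BMI1 hairpins. With both FAL-1 hairpins 7 were lower and 3 higher. E2F2 had the lowest mean of the 4 changes in the list, -0.79. It read -0.52 and -0.67 with BMI1, and -0.72 and -1.25 with FAL-1. Both FAL-1 hairpins were thus at least 1.5-fold lower for E2F2 (limma unadjusted p = 0.017, adjusted p = 0.999). Against BMI1 Ctrl its FAL-1 values were -0.48 and -1.02. RBL1, which encodes p107, was lower with every hairpin, at -0.41 and -0.90 with BMI1 and at -0.16 and -1.64 with FAL-1. RB1 read 0.02 and -0.19 with BMI1, and 0.05 and 0.02 with FAL-1, and its BMI1 hairpins lay on opposite sides of the control.

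Of 12 subunits of ubiquitin ligases that degrade CDK inhibitors, 9 were lower and 1 higher with both BMI1 hairpins. With both FAL-1 hairpins 4 were lower, near the 27.7% of all genes, and 3 higher. DTL, the substrate receptor for p21 in S phase, read -0.68 and -0.64 with BMI1, and -0.13 and -1.37 with FAL-1. SKP2, which targets p27, read -0.21 and -0.36 with BMI1, and 0.18 and -0.46 with FAL-1. Of 12 measured repressors of the INK4 locus, 4 were lower with both BMI1 hairpins, near the 30.7% of all genes and with the targeted BMI1 among them, and 2 were higher. With both FAL-1 hairpins 6 were lower and 3 higher. EZH2, the methyltransferase of Polycomb repressive complex 2, read -0.19 and -0.59 with BMI1, and -0.16 and -1.14 with FAL-1. Of 17 transcription regulators of CDK inhibitor genes, 4 were higher and 8 lower with both BMI1 hairpins, and 9 were higher and 4 lower with both FAL-1 hairpins. ID1, with the largest mean of the 4 changes in that list (0.66), read 0.04 and 0.82 with BMI1, and 0.56 and 1.23 with FAL-1. CEBPB read -0.24 and 0.24 with BMI1, and -0.98 and -0.70 with FAL-1. Its control arrays differed by 1.01, with FAL-1 Ctrl higher, and against BMI1 Ctrl its FAL-1 values were 0.03 and 0.31. No gene of these lists passed limma's test.

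Genes with a pattern like that of CDKN1A were sought over the 6 arrays, among 1813 genes whose highest and lowest array differed by at least 1. By Pearson r the 8 most alike were ZNFX1 (0.991), ASB5 (0.987), FAS (0.986), CABYR (0.985), DUSP5 (0.984), GRHL3 (0.984), PSAP (0.980) and DHRS3 (0.978). FAS, a death receptor, was higher by 0.98 and 1.20 with BMI1 and by 0.65 and 1.90 with FAL-1. The most opposite were BLM (-0.997), a DNA helicase of homologous recombination, PLCXD1 (-0.994), STRBP (-0.994) and ADAM22 (-0.993). BLM was at -0.64 and -0.80 with BMI1 and at -0.41 and -1.65 with FAL-1. An r of at least 0.9 was found for 99 of the 1813 genes and of -0.9 or lower for 304, so such values were common. The points share arrays, controls and the FAL-1 shRNA2 array that set much of the range. Without that array the r was between 0.925 and 0.993 for the 8 most alike. For the 4 most opposite it was between -0.996 and -0.985. These genes were picked by their r over all 6 arrays, so a strong r over the remaining arrays is partly built in and is only a description.

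The genes most like CDKN3 by the same measure were REXO5 (0.993), KIF20A (0.990), CDCA8 (0.990), IQGAP3 (0.988), MRPL48 (0.986), MAPK9 (0.985), CLYBL (0.985) and SESTD1 (0.985). KIF20A, a kinesin of mitosis and cytokinesis, read -0.63 and -0.93 with BMI1, and 0.41 and -1.40 with FAL-1. CDCA8, a subunit of the chromosomal passenger complex, read -0.44 and -0.58 with BMI1, and 0.20 and -1.19 with FAL-1. Like CDKN3, both were above FAL-1 Ctrl with FAL-1 shRNA1 and below it with FAL-1 shRNA2. The most opposite were LCE1C (-0.991), KRT8 (-0.985), MAPKAPK2 (-0.965) and HOMER1 (-0.955). Here 154 of 1813 genes had an r of at least 0.9 and 23 an r of -0.9 or lower. Without FAL-1 shRNA2 the r of the genes most like CDKN3 was between 0.957 and 0.991. That of the most opposite was between -0.987 and -0.858, with HOMER1 at -0.858.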

How the data were processed

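Each sample is 1 Affymetrix array of biotin-labelled cDNA, read in 1 colour, per the labels' protocols. The authors deposited 1 table of log2 values, 33252 probe sets by 6 arrays, and RMA (background correction, normalization and probe summary) is named per the submitters' processing notes. Neither its version nor joint normalization of the 6 arrays is stated there. The background level of the probe sets is likewise not known, so levels of different genes were set only against the mean of the median gene, as a rough measure of brightness.

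Gene names came from a platform annotation, in which 19460 probe sets had 1 symbol, 1754 several and 12038 were not listed. The brightest probe set stood for each of 769 genes with several, and those with several symbols were dropped except that of BMI1 and COMMD3-BMI1. This left 18418 genes. A single fit with 4 group means was made in limma 3.58.1 (R 4.3.3, lmFit and eBayes, two-sided, adjusted p threshold 0.05). It was tested on simulated data. The SD is over 2 hairpins, and intervals are limma's at 95%. Exact permutation tests used scipy 1.17.1, and figures matplotlib 3.10.9.

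The members are the 8 genes of the family. Other genes were named by a rule: BMI1, MDM2, SKP2, RB1, cyclin and CDK genes always, up to 6 per list by the mean of the 4 hairpin changes, and by Pearson r with CDKN1A or CDKN3 the 8 highest and 4 lowest. The values of 1 gene list, and of MDM2, are not reported here. Members, lists and rule were chosen with earlier results of these data known. Alternatives were the other control, pooled controls, normalizations, a filter on dim genes, the mean of probe sets, other priors, the hairpin number as a block, other fold thresholds and leaving out each hairpin. Likeness without FAL-1 shRNA2 was added after seeing the data. Promoter sequences are from RefSeq (GRCh38.p14). No source names the array's genome build, so gene coordinates are not printed.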

Additional observations from a re-analysis of the deposited data

Results flagged for a closer look

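CDKN2A was the only one of the 7 measured CDK inhibitor genes with both hairpins of one target on one side of their control and both of the other on the opposite side. Both FAL-1 hairpins were below their control (-0.10 and -0.04) and both BMI1 hairpins above theirs (0.26 and 0.12), which gave a difference of -0.26 between the targets. limma's test of that difference did not pass (adjusted p = 0.9999), and 10.8% of all 18418 genes showed opposite directions in this sense. Against the other target's control all 4 values of CDKN2A were above 0.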

How the results depend on the processing

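limma called 0 genes in each of the 4 comparisons under each of the 14 alternatives. The numbers 1 and 2 of the hairpins are labels of different sequences and not a known pairing. With the hairpin number as a replicate block the calls stayed at 0, and the adjusted p of the mean CDKN1A change was 0.586 in place of 0.907. Over the alternatives that adjusted p lay between 0.224 and 0.9999. The CDKN1A changes against a control kept their sign throughout, from 0.84 to 1.15 with BMI1 and from 0.52 to 2.05 with FAL-1. Directions that turned were these, and the cause was not tested. With pooled controls the BMI1 change became -0.024 for CDKN1B and -0.031 for CDKN2D, and the difference between targets 0.43 for CDKN1B, 0.035 for CDKN1C and 0.20 for CDKN2D. With the other target's control the BMI1 change became -0.32 for CDKN1B, -0.017 for CDKN1C, -0.14 for CDKN2D, -0.094 for CDK4 and 0.066 for MTAP, the FAL-1 change 0.046 for CDKN2A and 0.040 for BMI1, and the difference 1.02 for CDKN1B, 0.076 for CDKN1C, 0.42 for CDKN2D and -0.063 for CDKN3. Quantile normalization turned the difference for CDKN2D to 0.0047. Leaving out each hairpin gave BMI1 changes of -0.08 to 0.13 for CDKN1C, -0.014 to 0.17 for CDKN2D and -0.19 to 0.016 for RB1. It gave FAL-1 changes of -0.28 to 0.49 for CDKN1B, -0.16 to 0.20 for CDKN1C, -0.0003 to 0.13 for CDKN2D, -1.67 to 0.57 for CDKN3, -0.053 to 0.35 for CCND1, -1.08 to 0.051 for CDK2 and -0.46 to 0.18 for SKP2. The mean of both targets ran from -0.0061 to 0.38 for CDKN1B and from -0.068 to 0.11 for CDKN1C. The difference ran from -0.48 to 1.06 for CDKN1A, -0.56 to 0.22 for CDKN1B, -0.18 to 0.17 for CDKN1C, -0.22 to 0.44 for CDKN2B, -0.10 to 0.079 for CDKN2D and -1.04 to 1.20 for CDKN3. Genes with both hairpins past the fold numbered 433 higher and 780 lower with BMI1 and 535 and 625 with FAL-1 at 125% of the control, and 19, 17, 6 and 12 at 2-fold, in place of 99, 166, 106 and 117 at 1.5-fold. With the other target's control these were 178, 378, 455 and 277. The members among them were 1 at 125% in each of BMI1 higher (CDKN1A), BMI1 lower (CDKN3) and FAL-1 higher (CDKN1A), and 0 at 2-fold with BMI1. With the other target's control CDKN1A was 1 member higher with FAL-1. Genes with all knockdown arrays above both controls numbered 1070 with arrays centred on the median and 655 among genes at or above the median gene, in place of 1661, and the filter left 1 member there, CDKN1A, because it removed CDKN2B. CDKN2B, CDK6 and CDKN2A-AS1 were dimmer than the median gene and were left out by that filter.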
